A study of Homo sapiens with 4 samples.

Results

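Clear cell renal carcinomas that have lost VHL often carry further mutations in chromatin regulators. The mRNA of a set of such regulators and related SWI/SNF subunits was followed here in 786-O cells with and without VHL. The set was chosen by symbol and held 9 genes, namely PBRM1, BAP1, SETD2, ARID1A, ARID2, SMARCA4, SMARCA2, SMARCB1 and BRD7. Of these, 8 were found among the 12912 genes of the count table, and all 8 had enough counts to be tested. SMARCB1, a core SWI/SNF subunit, was not analysed here. The cells, 786-O, derive from a clear cell renal carcinoma and lack functional VHL, the substrate receptor of the ubiquitin ligase that marks HIF proteins for degradation. RNA-seq was performed on 2 libraries of 786-O-Ctrl, labelled VHL-null, and 2 of 786-O-VHL, in which HA-tagged VHL was restored by a retroviral vector. The labels name the triple-reporter versions (786-OTR) of both, which stably express GFP, luciferase and thymidine kinase, and all cells were grown in RPMI1640 with serum. Each group comes from a single subline. The labels do not say whether the libraries of a group came from separate cultures, so p-values measure the spread between these libraries, which may be technical.

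SWI/SNF complexes use the energy of ATP to move or evict nucleosomes. Each complex holds 1 of 2 exclusive ATPases, SMARCA4 or SMARCA2, and the canonical BAF form carries ARID1A or its paralog ARID1B, whereas the PBAF form carries ARID2, PBRM1 and BRD7. BAP1 removes ubiquitin from histone H2A and opposes the Polycomb group, and SETD2 places trimethylation on lysine 36 of histone H3 along transcribed genes. PBRM1, BAP1 and SETD2 lie on the short arm of chromosome 3 together with VHL, a region often deleted as a whole in this tumor type.

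Library totals were 22141263 and 15714166 counts for 786-O-Ctrl, against 2807779 counts for 786-O-VHL replicate 1 and 16114120 for replicate 2. Since both 786-O-Ctrl columns carry 1 replicate number, they are named by depth, deeper or shallower. Levels are given as CPM, counts divided by the TMM-adjusted depth of their library, and 12335 genes passed the filter on low counts and entered the quasi-likelihood test of edgeR, with p-values adjusted by Benjamini-Hochberg (FDR). VHL itself was at 42.9 and 43.9 CPM in 786-O-Ctrl and at 178 and 163 CPM in 786-O-VHL, a difference in the direction of the labels. The authors describe a frameshift mutation of VHL in 786-O and state that the line does not express VHL. VHL mRNA was present in 786-O-Ctrl, and mRNA counts do not measure the protein. Counts per gene do not separate endogenous VHL mRNA from that of the vector. Renal and epithelial markers were present, with PAX8 at 277 and 272 CPM in 786-O-Ctrl against 166 and 137 CPM in 786-O-VHL, and KRT8 at 769 and 741 against 477 and 541 CPM. VIM (1668 and 1699 against 751 and 709 CPM) and CDH2 (351 to 392 CPM over the 4 libraries) were abundant as well, and COL1A1 was at 5.71 to 7.12 CPM. The endothelial marker PECAM1 had between 1 and 9 counts. PAX2 (38.55 and 38.74 against 34.93 and 27.55 CPM) and KRT18 (161.8 and 154.2 against 152.6 and 141.2 CPM) were closer between the groups. So was KRT19, at 262.4 and 254.5 against 208.2 and 194.3 CPM. The part of the lower PAX8, KRT8 and VIM levels in the results was not tested.

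The changes of the chromatin tumor suppressors were small, and SMARCA4 was the only member whose call held under all 12 alternative treatments of the counts. At an edgeR FDR under 0.05, 3 members were lower in 786-O-VHL (SMARCA4, PBRM1 and ARID1A) and 2 were higher (ARID2 and SETD2), while BAP1, SMARCA2 and BRD7 did not pass. This is 62.5% of the members, beside 64.5% of all tested genes called in either direction (32.6% higher and 31.9% lower). Higher genes made up 50.5% of all calls, and 62.1% with library totals alone as the scaling. None of the 8 passed the same FDR with a change over 1.5-fold, which 34.8% of all tested genes did. The absolute log2 fold change was below the median over all genes of 0.43 in 7 of the 8 members, SMARCA4 being the exception. With a library left out in turn, no called member changed direction. The log2 fold changes were -0.56 to -0.46 for SMARCA4, -0.25 to -0.22 for PBRM1 and -0.28 to -0.13 for ARID1A. They were 0.13 to 0.43 for ARID2 and 0.17 to 0.26 for SETD2. Fits without either 786-O-Ctrl library or without 786-O-VHL replicate 2 called fewer members, and also fewer of all genes. The log2 fold changes ranged from -0.50 to 0.30 with a median of -0.10, beside a median of 0.02 over all genes. The libraries of both groups did not overlap in 7 of the 8 members, as in 80.0% of all genes. In RNA from bulk cultures, fewer cells that express a gene and less RNA per cell cannot be told apart.

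**Figure D1:**
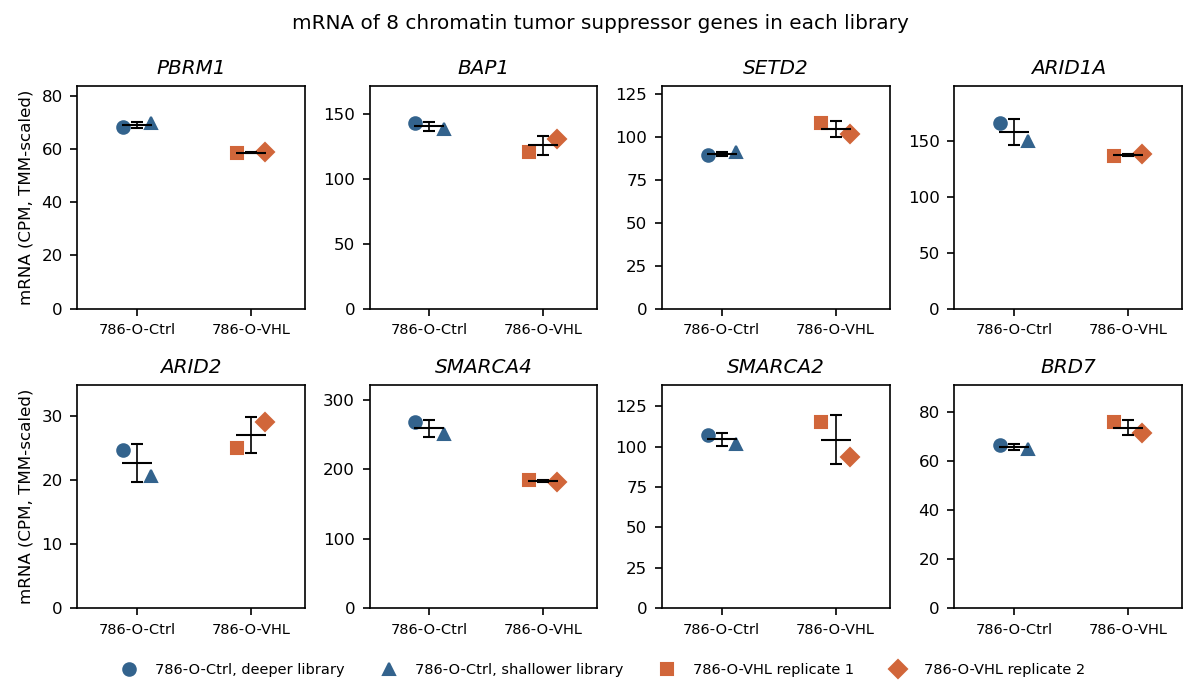
mRNA of the 8 genes in every library, in CPM after TMM scaling, with each axis starting at 0. Each symbol is 1 library and the black bars give the mean and SD of the 2 libraries of a group. The 786-O-VHL libraries lay below both 786-O-Ctrl libraries for SMARCA4 (182 and 184 against 250 and 268 CPM), and the groups overlapped for SMARCA2.

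SMARCA4 (ENSG00000127616.18), the ATPase also called BRG1, lies on the plus strand of chromosome 19 of GRCh37 from 11071608 to 11190102. Its counts were 5635 (deeper) and 3768 (shallower) for 786-O-Ctrl, against 542 (replicate 1) and 3064 (replicate 2) for 786-O-VHL. These correspond to 268 and 250 CPM against 184 and 182 CPM, and all values below follow this order of libraries. Both 786-O-VHL libraries lay below both 786-O-Ctrl libraries, and the gap between the groups was wider than the distance within either. SMARCA4 fell by 29.5% (95% interval -35.7% to -22.7%), or 0.50 on the log2 scale (log2 fold change -0.50, standard error, SE, 0.0648, edgeR FDR = 1.04e-07). In fits that each left out 1 library, the log2 fold change stayed between -0.56 and -0.46. No annotated gene overlaps its exons on either strand.

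SMARCA2 (ENSG00000080503.24), the alternative ATPase also called BRM, lies on the plus strand of chromosome 9 from 1980290 to 2193624. It was at 107 and 102 CPM in 786-O-Ctrl and at 115 and 93.6 CPM in 786-O-VHL. The 786-O-VHL libraries lay on either side of both 786-O-Ctrl libraries. The log2 fold change was -0.07 (95% interval -0.23 to 0.09, edgeR FDR = 0.445), and its sign was turned by scaling to library totals alone (0.06), by thinning the libraries to equal depth (0.0004) and without 786-O-VHL replicate 2 (0.13). Without 786-O-VHL replicate 1, SMARCA2 was called lower (-0.16, edgeR FDR = 0.0226). The antisense gene SMARCA2-AS1 overlaps its exons, and reads of the partners cannot be told apart without strand.

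The promoters of both ATPase genes are printed because SMARCA4 was called and SMARCA2 was not, together with that of PBRM1, whose first entry had the most matches among tested members to the core of the HIF binding motif. They run from 250 bases before to 50 bases after the annotated start of the first entry of each gene in RefSeq (GRCh38.p14) and are given 5′ to 3′ on the strand of the gene. Capitals mark ACGTG or GCGTG on either strand. In a CACGTG, the matches of both strands overlap.
SMARCA4 (chr19:10960780-10961079, plus strand): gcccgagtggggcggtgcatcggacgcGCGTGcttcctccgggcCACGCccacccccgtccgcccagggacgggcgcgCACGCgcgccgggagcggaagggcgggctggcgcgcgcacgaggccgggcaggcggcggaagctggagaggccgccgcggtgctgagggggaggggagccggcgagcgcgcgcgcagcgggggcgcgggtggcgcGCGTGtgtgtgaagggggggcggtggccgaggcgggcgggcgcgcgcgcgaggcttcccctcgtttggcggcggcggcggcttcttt
SMARCA2 (chr9:2015097-2015396, plus strand): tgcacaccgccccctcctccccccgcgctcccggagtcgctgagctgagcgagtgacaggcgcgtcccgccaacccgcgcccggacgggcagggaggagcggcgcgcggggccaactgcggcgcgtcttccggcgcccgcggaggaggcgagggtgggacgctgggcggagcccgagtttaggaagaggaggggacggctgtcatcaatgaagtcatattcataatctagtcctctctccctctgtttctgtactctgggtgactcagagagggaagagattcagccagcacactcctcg
PBRM1 (chr3:52685864-52686163, minus strand): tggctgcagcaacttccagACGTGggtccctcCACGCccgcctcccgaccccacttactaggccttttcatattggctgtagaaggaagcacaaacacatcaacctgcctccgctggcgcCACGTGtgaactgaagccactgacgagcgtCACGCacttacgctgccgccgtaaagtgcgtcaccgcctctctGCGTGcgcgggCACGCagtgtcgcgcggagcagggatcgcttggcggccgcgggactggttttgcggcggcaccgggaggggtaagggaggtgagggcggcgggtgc
The SMARCA4 window held 4 matches, all of GCGTG, the SMARCA2 window held none, and the PBRM1 window held 7. The count depended on the annotated start, since a second entry of PBRM1 held 0 matches and a second entry of SMARCA4 held 1. At least 1 match was present in 48.4% of the 35116 promoters of the same length in this table. A match describes the letters of the window and does not show binding. Of the other tested members, entries were found for SETD2 with 1 match and for ARID1A and BRD7 with 0, and BAP1 and ARID2 had no entry here.

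Among the subunits that define PBAF, PBRM1 was lower and ARID2 was higher in 786-O-VHL, and BRD7 did not pass the test. PBRM1 (ENSG00000163939.18), a protein with several bromodomains that bind acetylated histones, lies on the minus strand of chromosome 3 from 52579368 to 52719933. Its mRNA was at 68.2 and 69.8 CPM in 786-O-Ctrl and at 58.7 CPM in each 786-O-VHL library. The libraries of a group were close to each other, and the groups were apart. PBRM1 fell by 14.8% (95% interval -23.3% to -5.34%), a log2 fold change of -0.23 (SE 0.0743, edgeR FDR = 0.00788). The call was lost without either 786-O-Ctrl library (edgeR FDR = 0.0701 without the deeper and 0.107 without the shallower) and without 786-O-VHL replicate 2 (edgeR FDR = 0.0936), although the log2 fold change stayed between -0.25 and -0.22. The exons of UQCC5 overlap PBRM1 on the opposite strand.

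ARID2 (ENSG00000189079.17), which gives PBAF its ARID domain, lies on the plus strand of chromosome 12 from 46123489 to 46301823. It had the fewest counts of the members, 521 and 310 for 786-O-Ctrl against 74 and 489 for 786-O-VHL. Its levels were 24.7 and 20.6 CPM against 25.1 and 29.0 CPM, so that the nearest libraries of the groups, the deeper 786-O-Ctrl library and 786-O-VHL replicate 1, were closer than the libraries within a group. The log2 fold change was 0.30 (SE 0.119, 95% interval 0.05 to 0.54, edgeR FDR = 0.0303). It fell to 0.13 without 786-O-VHL replicate 2 (edgeR FDR = 0.623) and to 0.16 without the shallower 786-O-Ctrl library (edgeR FDR = 0.419).

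BRD7 (ENSG00000166164.15), a bromodomain protein that joins PBAF and also binds p53, lies on the minus strand of chromosome 16 from 50347398 to 50402899. It was at 66.3 and 64.7 CPM in 786-O-Ctrl and at 75.6 and 71.4 CPM in 786-O-VHL. The groups did not overlap, but the log2 fold change of 0.15 (95% interval -0.0034 to 0.29) did not pass (edgeR FDR = 0.0811). Annotated genes on the opposite strand, 2 in number and ADCY7 among them, overlap its exons.

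ARID1A (ENSG00000117713.20), a large DNA-binding subunit of canonical BAF, lies on the plus strand of chromosome 1 from 27019727 to 27108595. Its mRNA was at 166 and 150 CPM in 786-O-Ctrl and at 137 and 138 CPM in 786-O-VHL. The 786-O-VHL libraries agreed closely and lay below the shallower 786-O-Ctrl library by less than the distance between both 786-O-Ctrl libraries. ARID1A fell by 13.0% (95% interval -21.0% to -4.13%), a log2 fold change of -0.20 (SE 0.0679, edgeR FDR = 0.0115). The log2 fold change shrank to -0.13 without the deeper 786-O-Ctrl library (edgeR FDR = 0.349). Under scaling to library totals alone, which raised the median log2 fold change of all genes by 0.13, it was -0.07 (edgeR FDR = 0.391). An annotated gene on the opposite strand overlaps its exons.

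BAP1 (ENSG00000163930.10), the catalytic subunit of the H2A deubiquitinase, lies on the minus strand of chromosome 3 from 52435024 to 52444024, 135344 bases from PBRM1. It was at 143 and 138 CPM in 786-O-Ctrl and at 121 and 131 CPM in 786-O-VHL. Both 786-O-VHL libraries were lower, and the gap between the nearest libraries of the groups was smaller than the distance between those of 786-O-VHL. The log2 fold change was -0.14 (SE 0.0662, 95% interval -0.27 to -0.0025, edgeR FDR = 0.0692). Without 786-O-VHL replicate 2 it was -0.23 and passed (edgeR FDR = 0.0302), and with scaling to library totals alone it was -0.0048 (edgeR FDR = 0.953).

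SETD2 (ENSG00000181555.20), the methyltransferase of lysine 36 of histone H3, lies on the minus strand of chromosome 3 from 47057918 to 47205603. Its mRNA was at 89.3 and 90.9 CPM in 786-O-Ctrl and at 108 and 101 CPM in 786-O-VHL. Both 786-O-VHL libraries were higher, and the 786-O-Ctrl libraries differed little. SETD2 rose by 14.7% (95% interval 4.07% to 26.3%), a log2 fold change of 0.20 (SE 0.0682, edgeR FDR = 0.013). It was between 0.17 and 0.26 with a library left out in turn, and the call was lost without either 786-O-Ctrl library (edgeR FDR = 0.169 without the deeper and 0.105 without the shallower). No annotated gene overlaps the exons of SETD2 or BAP1. The 3 members on the short arm of chromosome 3 therefore did not share a direction, with PBRM1 lower, SETD2 higher and BAP1 not called.

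**Figure D2:**
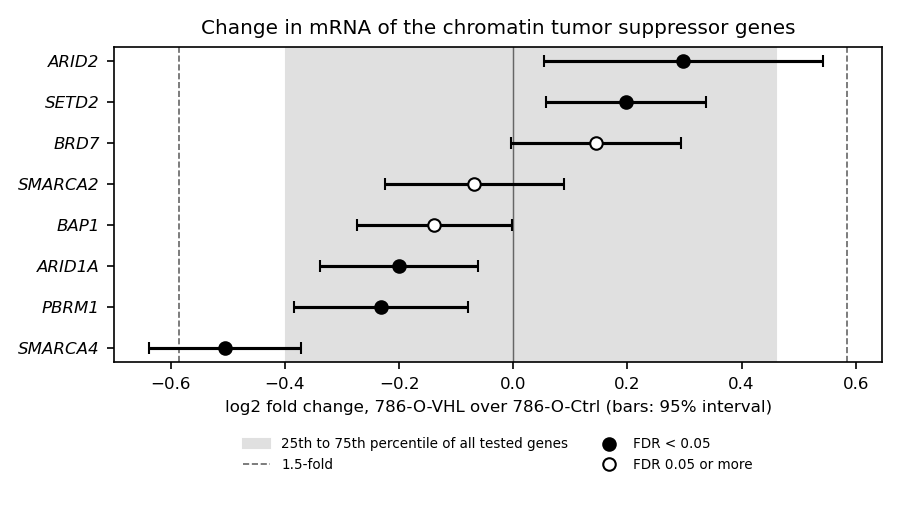
Log2 fold change of each gene in 786-O-VHL over 786-O-Ctrl with its 95% interval from edgeR; filled points passed an FDR of 0.05. The grey band spans the 25th to the 75th percentile of all tested genes, from -0.40 to 0.46, and the dashed lines mark 1.5-fold. The point of SMARCA4 alone lies outside the band, and no point lies beyond 1.5-fold.

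Compared per kb of the canonical transcript, SMARCA4 and BAP1 were the most abundant members and ARID2 the least. In 786-O-Ctrl the means were 46.4 CPM per kb for SMARCA4, 39.0 for BAP1, 18.4 for ARID1A, 18.2 for SMARCA2, 12.1 for BRD7, 10.6 for SETD2, 8.63 for PBRM1 and 2.64 for ARID2. The 786-O-Ctrl libraries of ARID1A and SMARCA2 overlapped, and those of each other pair of neighbours in this order did not. In 786-O-VHL, BAP1 (33.5 and 36.4 CPM per kb) lay above SMARCA4 (33.0 and 32.6) in both libraries, and SMARCA2 (20.0 and 16.3) above ARID1A (15.9 and 16.1). The order rests on the transcript that is used for length. Per kb of all annotated exons of a gene, BAP1 (29.3 to 30.3 CPM per kb) exceeded SMARCA4 (16.1 to 17.2) in 786-O-Ctrl as well, and ARID2 (1.66 to 1.99) was again the lowest.

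Ratios of related subunits within a library do not depend on the scaling of that library. The ratio of SMARCA4 to SMARCA2 per kb was 2.57 and 2.54 in 786-O-Ctrl against 1.65 and 2.0 in 786-O-VHL. Both 786-O-VHL libraries had the lower ratio, with a mean that fell by 28.8%, and SMARCA4 remained the more abundant ATPase in all 4 libraries. The ratio of ARID1A to ARID1B was 1.86 and 1.73 in 786-O-Ctrl against 1.41 and 1.49 in 786-O-VHL, and it fell by 19.2%. ARID1B itself did not pass, with a log2 fold change of 0.10 (SE 0.0667, edgeR FDR = 0.206). The ratio of BRD7 to BRD9, the bromodomain subunit of the non-canonical complex, was 0.310 and 0.313 in 786-O-Ctrl against 0.483 and 0.532 in 786-O-VHL, a difference of 62.8%. BRD9 fell in these cells, from 103 ± 2.4 to 71.5 ± 7.8 CPM (SD, n = 2 each), with a log2 fold change of -0.59 (SE 0.0747, edgeR FDR = 8.75e-08). For the scaffold subunits SMARCC1 and SMARCC2 the ratio was 1.67 and 1.59 in 786-O-Ctrl against 1.87 and 2.17 in 786-O-VHL. In all 4 pairs the groups did not overlap, beside 80.0% of all tested genes taken singly. A two-sided exact permutation test of each gave p = 0.333, the smallest that 2 libraries against 2 allow. Groups that do not overlap always give this value, so the test adds nothing to the separation.

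**Figure D3:**
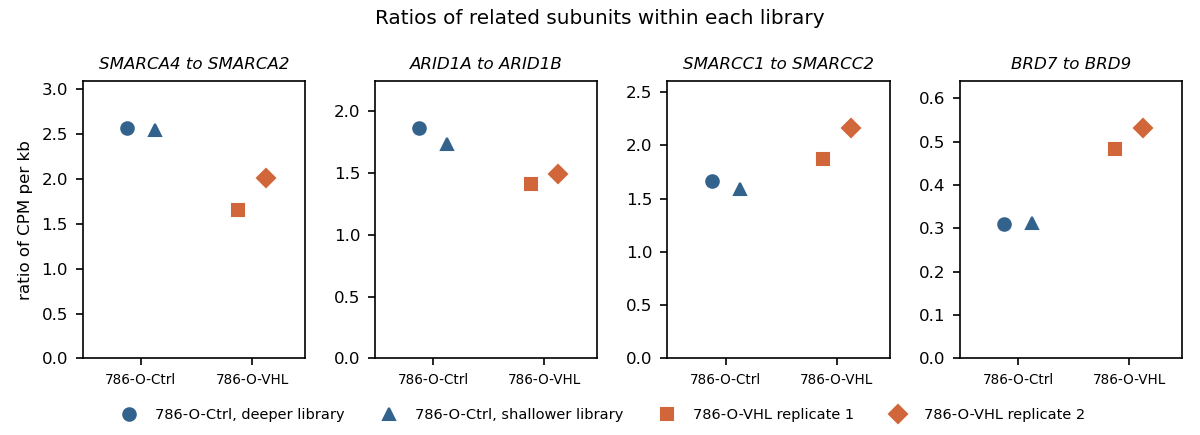
Ratio of CPM per kb of canonical transcript for 4 pairs of related SWI/SNF subunits, with 1 symbol per library and each axis starting at 0. The ratio of SMARCA4 to SMARCA2 is 2.54 or more in both 786-O-Ctrl libraries and 2.0 or less in both 786-O-VHL libraries, and that of BRD7 to BRD9 is higher in both 786-O-VHL libraries.

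Among the remaining SWI/SNF subunits, of which 20 were tested, 8 were lower and 5 were higher at FDR under 0.05. This stands beside 31.9% and 32.6% of all genes, and the median log2 fold change was -0.23. Over 1.5-fold, 3 were lower and 1 was higher, beside 16.3% and 18.5% of all genes. The count of higher subunits was 3 without either 786-O-Ctrl library and without 786-O-VHL replicate 2. Those lower over 1.5-fold were SS18 (-0.91, edgeR FDR = 5.49e-11), a canonical and non-canonical BAF subunit known from its fusion in synovial sarcoma, the scaffold SMARCC2 (-0.74, edgeR FDR = 3.31e-09) and BRD9. SMARCC2 was at 91.4 and 92.0 CPM in 786-O-Ctrl and at 63.1 and 52.4 CPM in 786-O-VHL, with a wide gap between the groups. The other scaffold, SMARCC1, fell less, with a log2 fold change of -0.38 (SE 0.0651, edgeR FDR = 1.21e-05). These falls were called under all 12 alternatives. SMARCE1 was higher (0.66, edgeR FDR = 0.0253) on between 25 and 91 counts a library, a call lost without either 786-O-Ctrl library, without 786-O-VHL replicate 1 and with DESeq2. Genes on the same strand overlap exons of SMARCC2, BRD9 and SMARCE1, so their reads may be split. On the opposite strand, MYL6 overlaps exons of SMARCC2, and another annotated gene overlaps those of SMARCE1. The row of SS18 was matched by its Ensembl identifier, since the table gives it another symbol.

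Of the partners of BAP1, 9 were tested, and 2 were higher and 2 were lower at FDR under 0.05, against 32.6% and 31.9% of all genes, with a median log2 fold change of -0.06. Without 786-O-VHL replicate 1, 4 were higher. HCFC1, a chromatin-bound host cell factor that recruits histone modifying enzymes, changed most. It was at 227 and 208 CPM in 786-O-Ctrl and at 88.5 and 74.9 CPM in 786-O-VHL, with a log2 fold change of -1.47 (SE 0.0761, edgeR FDR = 8.69e-16). All 4 libraries were separated by group with a wide gap. MBD6, a methyl-CpG binding domain protein, was higher, from 49.3 and 49.5 CPM to 83.4 and 75.8 CPM (0.66, edgeR FDR = 1.53e-08). DCTN2 and DDIT3 overlap MBD6 on the opposite strand. The ASXL proteins activate BAP1, and neither ASXL1 (-0.11, edgeR FDR = 0.127) nor ASXL2 (-0.06, edgeR FDR = 0.527) passed.

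Around SETD2, 12 enzymes, readers and elongation adaptors linked to methylation of the same histone lysine were tested, of which 7 were lower and 3 were higher, beside 31.9% and 32.6% of all genes, with a median log2 fold change of -0.21. Those lower numbered 3 without the deeper and 4 without the shallower 786-O-Ctrl library, and 3 without 786-O-VHL replicate 2. The enzymes that place up to dimethylation on this lysine differed in direction. NSD2 was at 453 and 458 CPM in 786-O-Ctrl and at 293 and 324 CPM in 786-O-VHL (-0.55, edgeR FDR = 1.83e-08). NSD1 was at 110 and 107 CPM in 786-O-Ctrl and at 145 and 168 CPM in 786-O-VHL (0.57, edgeR FDR = 3.72e-08). The other methyltransferases of this list are named here after their values were seen. NSD3 was higher (0.56, edgeR FDR = 7.4e-07), SETMAR was lower (-0.46, edgeR FDR = 0.0446) and ASH1L did not pass (0.0017, edgeR FDR = 0.986). MSH6, a mismatch repair protein that reads the mark left by SETD2, was the only gene of this list past 1.5-fold. Its levels were 139 and 143 CPM against 72.2 and 70.7 CPM (-0.99, edgeR FDR = 6.38e-13). Of all tested genes, 34.8% passed 1.5-fold at an FDR under 0.05. The calls of NSD1, NSD2 and MSH6 held under all 12 alternatives. Only NSD2 of the 3 has a gene on the same strand over its exons, the small RNA gene SCARNA22. On the opposite strand, FBXO11 and RPL36AP15 overlap exons of MSH6, and PRMT1P1 overlaps those of NSD1.

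The Polycomb repressive complexes, which SWI/SNF and BAP1 oppose, were counted next. Of 27 tested genes, 12 were higher and 8 were lower, beside 32.6% and 31.9% of all genes, with a median log2 fold change of 0.18. Past 1.5-fold, 8 were higher and 4 were lower, beside 18.5% and 16.3% of all genes. The catalytic subunits of Polycomb repressive complex 2 changed in opposite directions. EZH2 was at 73.8 and 75.6 CPM in 786-O-Ctrl and at 44.1 and 41.7 CPM in 786-O-VHL (-0.82, edgeR FDR = 4.28e-10). EZH1 was at 20.7 and 18.8 CPM against 48.5 and 48.4 CPM (1.29, edgeR FDR = 7.94e-12). SUZ12, a shared partner of both, did not pass (-0.11, edgeR FDR = 0.192). EED, another shared partner, named after its values were seen, was lower (-0.61, edgeR FDR = 0.000103). In complex 1, RYBP rose, with a log2 fold change of 1.29 (edgeR FDR = 0.000248, on 21 to 87 counts a library in the fuller of 2 rows with this symbol). CBX6 (0.65), CBX7 (0.67), YAF2 (0.62), PHC2 (0.60) and PHC3 (0.60), named after their values were seen, were also higher past 1.5-fold. The only tested genes of complex 1 lower past it were PCGF6 and CBX2, with -1.17 (edgeR FDR = 2.69e-08) and -0.73 (edgeR FDR = 9.56e-05). In 786-O-VHL replicate 1, PCGF6 and CBX2 had 25 and 24 counts.

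Among 20 other remodelers, mostly of the ISWI, CHD and INO80 families but with HELLS and ATRX outside them, 7 were higher and 3 were lower, against 32.6% and 31.9% of all genes, with a median log2 fold change of 0.04. Those higher numbered 4 without the shallower 786-O-Ctrl library and 3 without 786-O-VHL replicate 2, and 1 was lower without the deeper 786-O-Ctrl library or without 786-O-VHL replicate 2. HELLS, a remodeler needed for DNA methylation of repeats, was at 35.1 and 35.7 CPM in 786-O-Ctrl and at 10.5 and 8.91 CPM in 786-O-VHL (-1.94, edgeR FDR = 2.97e-13). CHD2 was at 66.0 and 74.5 CPM against 142 and 142 CPM (1.02, edgeR FDR = 4.31e-13). These were the only genes of the list past 1.5-fold at an FDR under 0.05, which 34.8% of all tested genes passed. Genes on the same strand overlap exons of both.

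**Figure D4:**
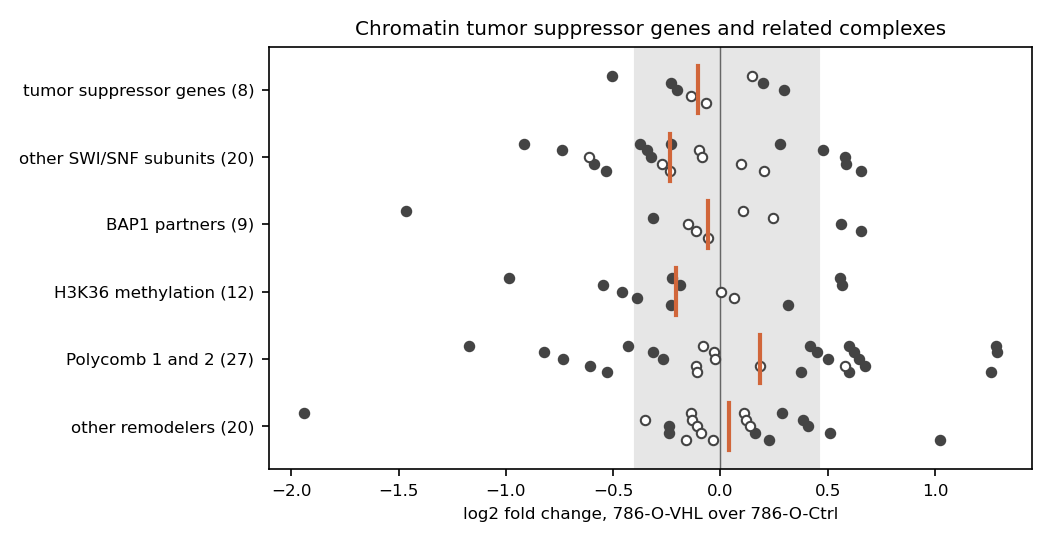
Log2 fold change of each tested gene, in rows for the 8 chromatin tumor suppressors and 5 lists of related complexes, with the number of genes in parentheses. Filled points passed an edgeR FDR of 0.05, orange bars are medians (-0.10 for the tumor suppressors, 0.18 for Polycomb), and the grey band spans the 25th to the 75th percentile of all tested genes. HELLS at -1.94 and HCFC1 at -1.47 lie farthest to the left.

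On chromosome 3 of GRCh37, the stretch from the start of SETD2 to the end of PBRM1 covers 5662016 bases, and 100 protein-coding genes other than the members were tested there. Of these, 32 were higher and 34 were lower at FDR under 0.05, beside 32.6% and 31.9% of all genes, with a median log2 fold change of -0.04. Genes in it reached larger changes than PBRM1, BAP1 and SETD2. DOCK3, an exchange factor for Rac, rose from 3.80 and 4.78 CPM to 34.3 and 30.9 CPM (2.91, edgeR FDR = 1.94e-15), and the cadherin CELSR3 from 6.74 and 7.91 to 23.1 and 27.7 CPM (1.87, edgeR FDR = 7.6e-12). PFKFB4, which makes the activator of phosphofructokinase and is a known HIF target, fell from 34.9 and 37.5 CPM to 8.48 and 8.43 CPM (-2.10, edgeR FDR = 7.47e-14), and its same-strand neighbour UCN2, with overlapping exons, fell by 1.90 on the log2 scale. CSPG5 fell to 0 and 2 counts in 786-O-VHL, and MST1R rose on 3 to 15 counts a library, a call lost with DESeq2, without either 786-O-Ctrl library and without 786-O-VHL replicate 1. Only 9 of the 12 alternatives tested MST1R. SMARCC1 also lies in this stretch.

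The genes whose profile was most like that of SMARCA4 over the 4 libraries were SEC13, MED15 and CHPF, among 1726 tested genes with a mean level within 2-fold. Their root mean square differences from SMARCA4 in centred log2 CPM were 0.0144, 0.0171 and 0.0175, with log2 fold changes of -0.51 for each. With 4 libraries in 2 groups, such a likeness says little more than that the size of the difference was the same.

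**Figure D5:**
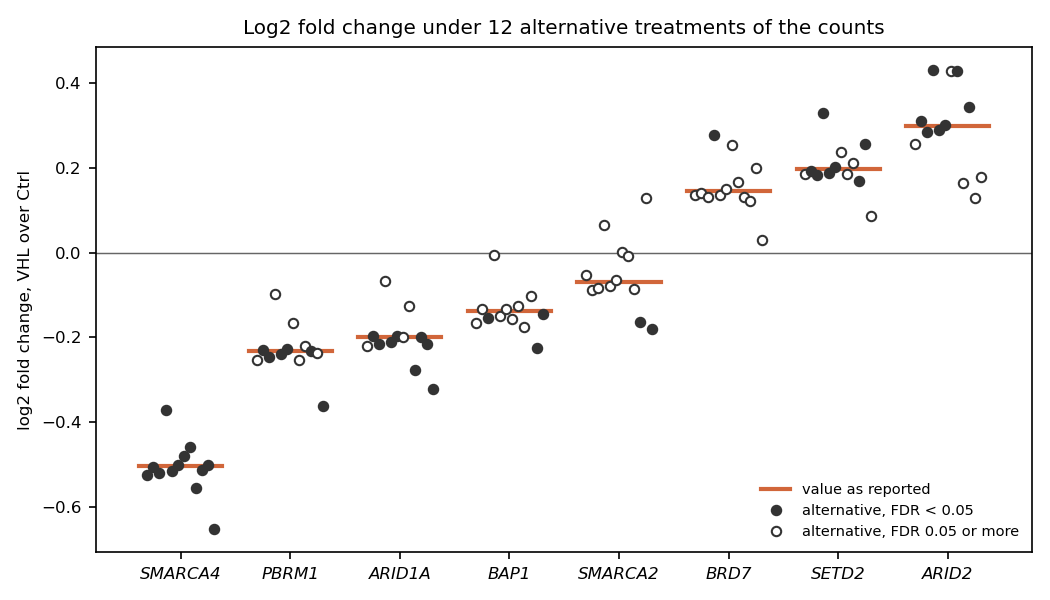
Log2 fold change of each gene in 786-O-VHL over 786-O-Ctrl as reported (orange bar) and under 12 alternative treatments of the counts (points, filled where the edgeR, DESeq2 or limma-voom FDR was under 0.05). SMARCA4 is filled in all 12, between -0.65 and -0.37, SMARCA2 crosses 0, and every other gene has filled and open points on 1 side of 0.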

How the data were processed

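Total RNA of both sublines was sequenced on an Illumina instrument, with 2 libraries per subline. Reads were aligned by the authors to hg19, and raw counts per gene were deposited as whole numbers without normalization. The submitters' processing notes name CASAVA and STAR. How reads were counted, by which annotation and with or without strand is not given in the sources used here. Of 12912 identifiers, 12749 were found in a GRCh37 annotation (GENCODE), which gave coordinates, exon lengths and overlaps.

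Counts were analysed with edgeR 4.0.16 in R 4.3.3. filterByExpr at a minimum count of 10 kept 12335 genes, and TMM scaling, the quasi-likelihood F test on group alone and Benjamini-Hochberg adjustment followed. Intervals are 95% and come from the F statistic, with a biological coefficient of variation of 4.31%. Replicates differed by more than sampling noise (chi-square per gene of 2.25 for 786-O-Ctrl, 2.76 for 786-O-VHL). A count of 0 allows 3 counts, or 0.142 to 1.02 CPM by library, which covers counting error only. The fit was tested on simulated counts.

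The members and lists were chosen with earlier results of these data known. Named are all members, VHL, the paralogs ARID1B, SMARCC1, SMARCC2 and BRD9, the partners or counterparts ASXL1, ASXL2, HCFC1, NSD1, NSD2, EZH2 and SUZ12, of each list and of the chromosome 3 stretch at most 3 genes a direction past 1.5-fold and FDR under 0.05, and the 3 profiles nearest to SMARCA4. The promoters and their motif were chosen after the values were seen. Lists were counted and not tested as sets. A result on 1 gene that this rule names is not reported here. Alternatives were DESeq2 1.42.0, limma-voom (limma 3.58.1), RLE size factors, library totals alone, no filter, at least 10 counts in every library, thinning to the shallowest library, each library left out, and a loess correction for GC content and exon length (span 0.3, 12200 genes).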

Additional observations from a re-analysis of the deposited data

How the results depend on the processing

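All 50 counts of calls over all genes under the alternatives stayed within 1.5 times the reported ones. Library totals alone moved the median log2 fold change of all genes from 0.02 to 0.15, and the share of higher genes among calls from 50.5% to 62.1%. No paired analysis was possible because both 786-O-Ctrl columns carry the same replicate number. Depth limits the members most in 786-O-VHL replicate 1.

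Members called higher numbered 0 with DESeq2, after thinning, with the correction for GC content and exon length and at FDR under 0.01, in place of 2, and between 0 and 2 with a library left out. Members called lower numbered 1 with DESeq2, library totals alone and thinning and 5 with the GC and length correction, in place of 3, and between 1 and 4 with a library left out. Over all genes, 2816 of 12908 were called higher with DESeq2 and 2893 of 10864 after thinning, in place of 4017 of 12335. Those called lower were 3150 with DESeq2 and 2917 after thinning, in place of 3939. With the GC and length correction, 3673 of 12200 genes were called higher and 4276 lower, and 1 member (SMARCA4, -0.65) passed 1.5-fold.

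With DESeq2 the calls of PBRM1 (-0.25), SETD2 (0.185), ARID1A (-0.22) and ARID2 (0.26) were lost. Thinning ended those of PBRM1 (-0.17), SETD2 (0.24), ARID1A (-0.20) and ARID2 (0.43) and turned SMARCA2 (0.0004). Library totals alone ended those of PBRM1 (-0.10) and ARID1A (-0.0666), turned SMARCA2 (0.0645) and added BRD7 (0.28). The GC and length correction ended those of SETD2 (0.0866) and ARID2 (0.18) and added BAP1 (-0.14) and SMARCA2 (-0.18). RLE size factors added BAP1 (-0.15). With a library left out, PBRM1 ranged from -0.25 to -0.22, BAP1 from -0.23 to -0.10, SETD2 from 0.17 to 0.26, ARID1A from -0.28 to -0.13, ARID2 from 0.13 to 0.43, SMARCA4 from -0.56 to -0.46, SMARCA2 from -0.16 to 0.13 and BRD7 from 0.12 to 0.20. The cause was not tested.

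Of the related lists, SWI/SNF subunits called higher were 2 with DESeq2 and 3 to 4 with a library left out. BAP1 partners called higher were 4 with library totals alone and 2 to 4 with a library left out, and those called lower were 1 after thinning and 4 with the GC and length correction. The genes of the SETD2 list called lower were 3 with library totals alone, 3 after thinning and 3 to 7 with a library left out. The other remodelers called higher were 4 with DESeq2 and 3 to 7 with a library left out, and those called lower were 5 with RLE size factors, 1 with library totals alone, 7 with the GC and length correction and 1 to 4 with a library left out.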
